A study of Drepana arcuata with 6 samples.

Results

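Fatty acid synthase, cytochrome c oxidase and cytochrome P450 enzymes belong to lipid synthesis, respiration and detoxification, and a contig named for each of them is among the late instar transcripts singled out by the study of the masked birch caterpillar, Drepana arcuata. The Trinity genes of these contigs are described here with all of their isoforms. They are TRINITY_DN21922_c0_g1, named fatty acid synthase-like (FAS below), TRINITY_DN15158_c4_g1, named cytochrome c oxidase subunit 6b-2-like (COX6b below), and TRINITY_DN20396_c0_g1, named cytochrome P450 6B46 (CYP6B46 below). The members were found by these IDs, and they are 3 of the 116079 Trinity genes and 44 of the 231348 transcripts in the deposited tables. A Trinity gene is a set of contigs assembled from shared sequence, and its contigs are called isoforms. FAS had 5 isoforms, COX6b had 20 and CYP6B46 had 19. The names are those of the protein match that the study prints for a single isoform of each gene, called the listed transcript below. Its matches for the other isoforms were not consulted here. The listed transcripts are i1 of FAS, i10 of COX6b and i4 of CYP6B46. The study picked each of them among its own calls on these same libraries, so the values of the listed transcripts are a description, and tests that include them are not independent evidence.

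Late instars were pools of whole larvae of instars IV and V, with 5 larvae in each of 3 libraries. These larvae live alone in leaf shelters. Early instars were pools of whole larvae of instars I and II, with 20 larvae in each of 3 libraries, and these larvae live in groups. All larvae were untreated offspring of 1 wild-caught female, reared on paper birch leaves, so the spread between libraries is that between pools of siblings. Expected counts, which are the fragments that RSEM assigned to each transcript, summed to between 15109224 and 35571272 in late and between 11177800 and 46307057 in early libraries. In a whole body, fewer cells of a type and less RNA per cell cannot be told apart, and markers of single tissues were not checked, as no annotation of the whole assembly was used here.

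Fatty acid synthase builds long-chain fatty acids from acetyl and malonyl units, and in insects these feed fat body stores, membranes and the lipids of the cuticle. Cytochrome c oxidase is the last complex of the mitochondrial respiratory chain and passes electrons to oxygen. Its subunit 6b is a small protein, encoded in the nucleus, that sits on the side of the intermembrane space. Cytochrome P450 enzymes of the CYP6B subfamily are membrane-bound monooxygenases that insects use on plant toxins. The best known are those of swallowtail caterpillars, which act on furanocoumarins, and CYP6B46 itself is known from the tobacco hornworm, where nicotine in the diet induces it.

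The 3 genes differed in how their summed abundance changed with stage. FAS was nearly confined to late instars, COX6b was about 4 times as abundant there (a ratio of 4.17 between mean CPM), and CYP6B46 had overlapping levels in both stages, with i4 among its isoforms high in late and i18 high in early instars. CPM values are counts scaled to an equal library total, with TMM factors. TPM, which also divides by length, is the unit for comparing genes with each other. By mean TPM the order in late instars was COX6b with 9.38 ± 2.79, FAS with 5.81 ± 0.665 and CYP6B46 with 1.61 ± 0.365 (SD, n = 3). In early instars the order was CYP6B46 with 1.84 ± 0.305, COX6b with 1.22 ± 0.186 and FAS with 0.00333 ± 0.00577 TPM. The lowest late library of COX6b (6.97 TPM) lay close to the highest of FAS (6.47 TPM), and in early instars the lowest library of CYP6B46 (1.63 TPM) was above the highest of COX6b (1.35 TPM).

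**Figure D1:**
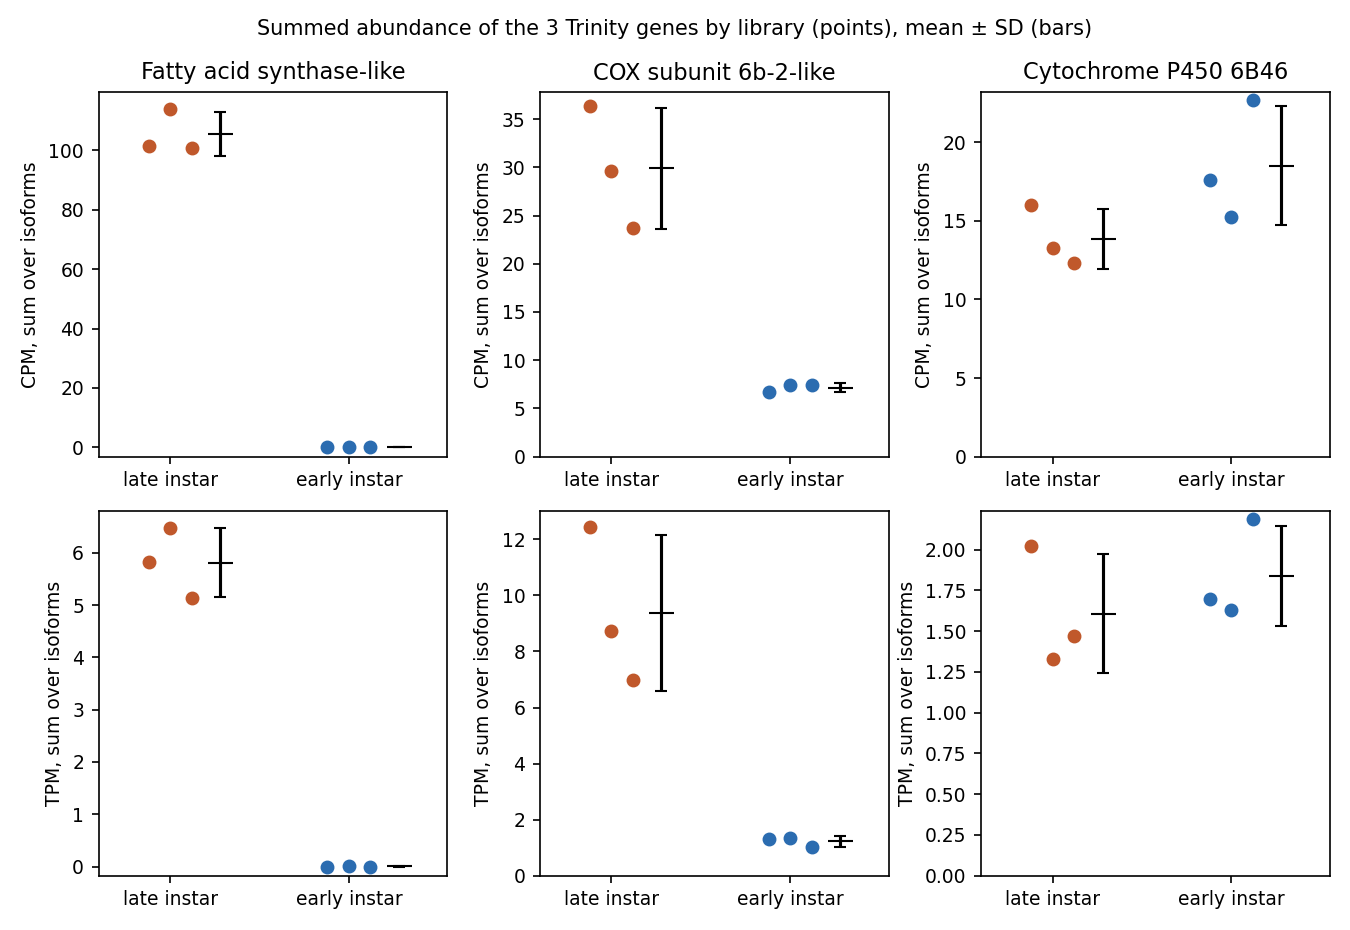
Sums of all isoforms of each gene, in CPM (upper row) and TPM (lower row), with late instars left of early instars. Points are libraries and black bars are the mean ± SD of 3 libraries. FAS averaged 105 CPM in late and 0.0624 CPM in early instars, COX6b 29.9 and 7.17 CPM, and the points of CYP6B46 overlap, with 13.9 CPM in late and 18.5 CPM in early instars.

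Gene sums of the counts were compared between the stages with edgeR's quasi-likelihood test over the 22132 genes that exceeded 1 CPM in 2 or more libraries. Genes were called at an adjusted p (Benjamini-Hochberg) no higher than 0.001 with a log2 fold change of 2 or more in size, limits taken over from the study. Of all genes tested, 8.82% were called, 4.87% as higher and 3.96% as lower in late instars. FAS and COX6b were called higher and CYP6B46 was not called. In 20.8% of all tested genes every late library was above every early library, and this was so in FAS and COX6b. In 23.8% of the genes every late library was below every early one. All log2 fold changes below are late over early, with their standard error (SE) and the p of this test.

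FAS had 101, 114 and 101 CPM in late replicates 1, 2 and 3, against 0, 0.187 and 0 CPM in early replicates 1, 2 and 3. Late libraries lay within a narrow range, and the only early signal was 2 counts in replicate 2. Over pooled libraries these were 8432 late counts against 2 early counts, a ratio of 4318 with a 95% exact Poisson interval of 1195 to 35658 that covers counting error only. The fitted log2 fold change was 11.75 (SE 0.68, edgeR adjusted p = 1.87e-05), and its size depends on the prior count that edgeR adds. Without 1 library it ranged from 10.61 (early replicate 1 left out) to 14.63 (early replicate 2 left out). FAS exceeded 1 CPM in late libraries only, so it passed the filter through that stage alone. Only 1 other tested gene, TRINITY_DN21441_c1_g1, had as few early counts (1 count) with at least as high a mean late CPM. It has no name in the sources used here and was chosen after its values were seen.

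The listed FAS transcript i1, a contig of 6330 bp, carried most of this sum. It had 95.5, 110 and 99.7 CPM in the late replicates and 0 counts in all early replicates. Its late level was 102 ± 7.65 CPM (SD, n = 3), at least 2715-fold higher in late instars when early instars are set to a floor of 3 counts over their 3 libraries. The transcript held 92.6%, 94.8% and 96.5% of the counts of its gene in late replicates 1, 2 and 3, so the sum of the gene is mostly a second reading of the transcript that the study listed.

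The other long contig, i3 of 5273 bp, had the same direction. It is not among the transcripts singled out by the study, and whether the study also called it was not checked here. It had 7.63, 5.83 and 3.63 CPM in the late replicates, against 0, 0.185 and 0 CPM in the early ones, and the 2 early counts of the gene were both in it. Its pooled ratio was 250 (95% exact Poisson interval 69.0 to 2074, counting error only). In the same test run over 52912 transcripts, its fitted log2 fold change was 7.18 (SE 1.41, edgeR adjusted p = 0.0311). This p passed 0.05 with all libraries and without late replicate 2 or early replicate 2, but it was 0.0807 without late replicate 1, 0.0587 without late replicate 3, 0.0734 without early replicate 1 and 0.0837 without early replicate 3. Of all tested transcripts, 5.01% passed an adjusted p of 0.05 with higher and 4.25% with lower levels in late instars. With the listed transcript left out of the sums, the rest of the FAS gene, nearly all of it i3, was within the limits (log2 fold change 7.53, SE 0.86, edgeR adjusted p = 0.000337). Like i3, this rest exceeded 1 CPM in late libraries only. The filter was thus passed through the stage where it is high, and the value is a description.

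The remaining FAS contigs i2, i4 and i5 were fragments of 215 to 258 bp that did not pass the filter. Together they had 1, 7.35 and 0 counts in late replicates 1, 2 and 3 and none in early instars. Because TPM divides by length, such fragments weigh more in TPM than in counts. In late replicate 2, i2 stood at 0.47 TPM on 3.11 counts and i5 at 0.50 TPM on 4.24 counts, beside 5.17 TPM on 2983.76 counts for i1. The percent of the gene's TPM held by i1 was therefore 79.85 there, against 88.74 in late replicate 1 and 95.79 in late replicate 3.

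Another 6 Trinity genes carry the same read cluster number as FAS (DN21922), which means that Trinity assembled them from linked reads. Of these, only TRINITY_DN21922_c0_g3 was abundant enough to be tested. It consists of 5 contigs of 264 to 697 bp, and had 34.2 ± 5.86 CPM in late and 5.05 ± 0.973 CPM in early instars (log2 fold change 2.77, SE 0.22, edgeR adjusted p = 5.8e-05). It was called higher in late instars, like FAS itself, but unlike FAS it had counts in all 3 early libraries. It is not named in the sources used here, so whether it is a further piece of a fatty acid synthase was not tested.

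**Figure D2:**
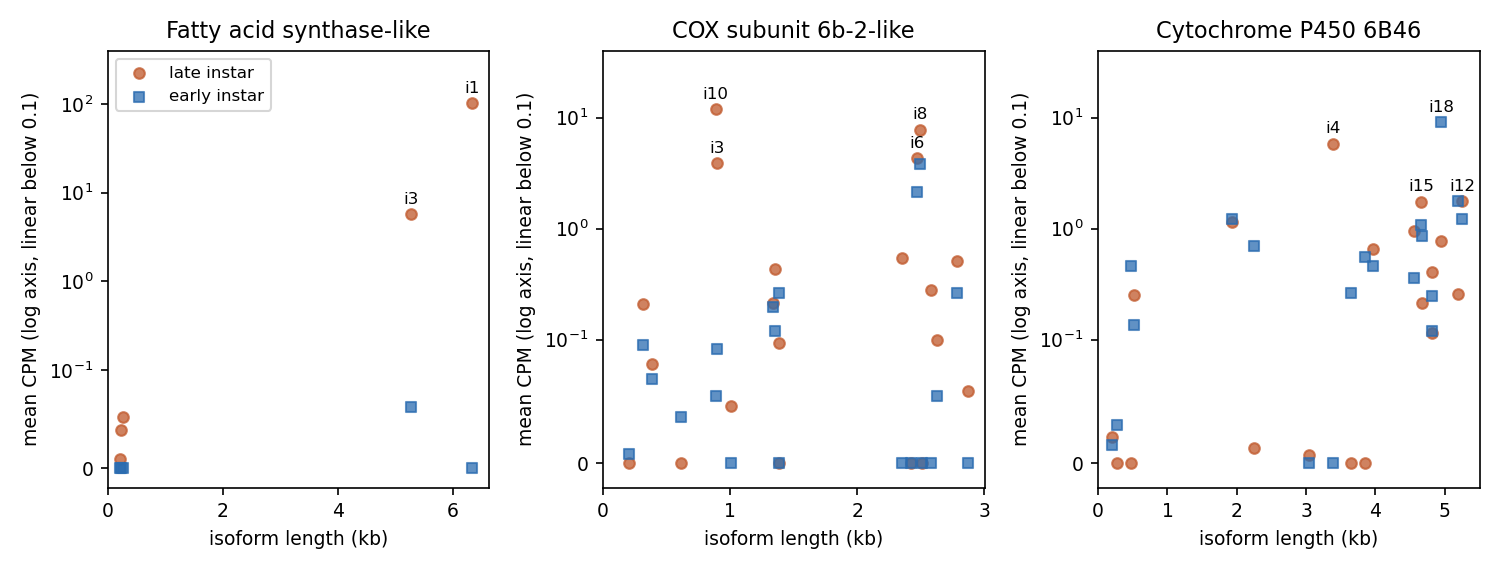
Mean CPM of each isoform (vertical axis, logarithmic above 0.1 and linear below) against its length in kb (horizontal axis) for FAS, COX6b and CYP6B46. Circles are late and squares early instars (3 libraries each), and the isoforms described one by one are labelled. The late signal of FAS sits in its 2 longest contigs (102 CPM in i1, of 6330 bp), that of COX6b is divided between short contigs (11.96 CPM in i10, of 886 bp) and long ones (7.78 CPM in i8, of 2491 bp), and i4 and i18 of CYP6B46 differ in length by more than 1 kb (3394 and 4945 bp).

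COX6b had 36.3, 29.6 and 23.7 CPM in late replicates 1, 2 and 3, against 6.67, 7.40 and 7.44 CPM in early replicates 1, 2 and 3. Every late library was above every early library, and the late libraries spread more (SD 6.31 CPM in late and 0.433 CPM in early instars). The log2 fold change was 2.06 (SE 0.21, 95% interval 1.58 to 2.54, edgeR adjusted p = 0.000166). The call lay near both limits. It was lost without late replicate 1, where the log2 fold change was 1.91, and without early replicate 1, 2 or 3, where the adjusted p was 0.00162, 0.00143 and 0.00134. The direction was the same in all of these fits.

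The size of the COX6b difference also depended on the unit. Mean TPM was 7.66 times as high in late as in early instars, against 4.17 times in CPM, a disparity of 1.84 times. With the mean effective length of the isoforms in each library, weighted by their TPM, as an offset in edgeR, the log2 fold change of the counts was 2.73 (adjusted p = 8.93e-05, edgeR quasi-likelihood).

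The tested contigs of COX6b fell into short and long ones. The listed transcript i10, of 886 bp, had 19.0, 6.74 and 10.2 CPM in the late replicates, against 0.114, 0 and 0.0481 CPM in the early ones. These were 1025 late counts against 6 early counts, a pooled ratio of 175 (95% exact Poisson interval 80.0 to 477, counting error only). Contig i10 was thus the most abundant isoform of the gene in late replicates 1 and 3. In early instars it had the lowest mean CPM of the 4 tested isoforms. That rank rests on few counts, and in early replicate 3 contig i3 was slightly lower (0.0472 CPM).

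Contig i3, of 898 bp, differs from i10 by 12 bp in length and had 1.02, 9.40 and 1.22 CPM in the late replicates, against 0.150, 0.0807 and 0.0472 CPM in the early ones. It was high in late replicate 2, the same library in which i10 was lowest. Its log2 fold change was 5.21 (SE 1.21) with an adjusted p of 0.0502 in edgeR's quasi-likelihood test, which misses 0.05, and over the alternatives this p lay between 0.00031 and 0.149. Without late replicate 2 the log2 fold change of i3 was 3.44 (edgeR adjusted p = 0.0945), and the late minus early difference in its percent of the gene's TPM was 2.75 points, against 15.25 points with all libraries. How RSEM divides fragments between contigs so similar in length was not tested, as no sequences were used here. The sum of both contigs, chosen after their values were seen, was more even over the late libraries than either alone. It came to 20.0, 16.1 and 11.4 CPM in the late replicates and held 54.1%, 53.4% and 46.8% of the counts of the gene there. In the early replicates the sum was 0.264, 0.0807 and 0.0953 CPM and held 3.77%, 1.10% and 1.31% of the counts. Fitted as 1 transcript, the pair had a log2 fold change of 6.56 (SE 0.57, edgeR adjusted p = 0.00368).

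The long contigs i8 (2491 bp) and i6 (2472 bp) were the main isoforms of COX6b in early instars. Contig i8 had 9.92, 6.73 and 6.70 CPM in the late replicates, against 4.06, 3.48 and 3.94 CPM in the early ones. Contig i6 had 3.54, 5.91 and 3.47 CPM in the late replicates, against 1.72, 2.01 and 2.65 CPM in the early ones. In both, every late library was above every early one, as in 15.8% of all tested transcripts, but neither passed an adjusted p of 0.05 in the quasi-likelihood test. By DESeq2, i8 passed it (log2 fold change 1.07, DESeq2 adjusted p = 0.00594) and i6 did not (DESeq2 adjusted p = 0.0891). By edgeR's exact test neither passed. The log2 fold change was 1.02 in i8 (SE 0.30, edgeR adjusted p = 0.0973) and 1.01 in i6 (SE 0.39, edgeR adjusted p = 0.186). With i10 left out of the sum, the COX6b gene had a log2 fold change of 1.36 (SE 0.23, edgeR adjusted p = 0.00266), below both limits of a call.

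**Figure D3:**
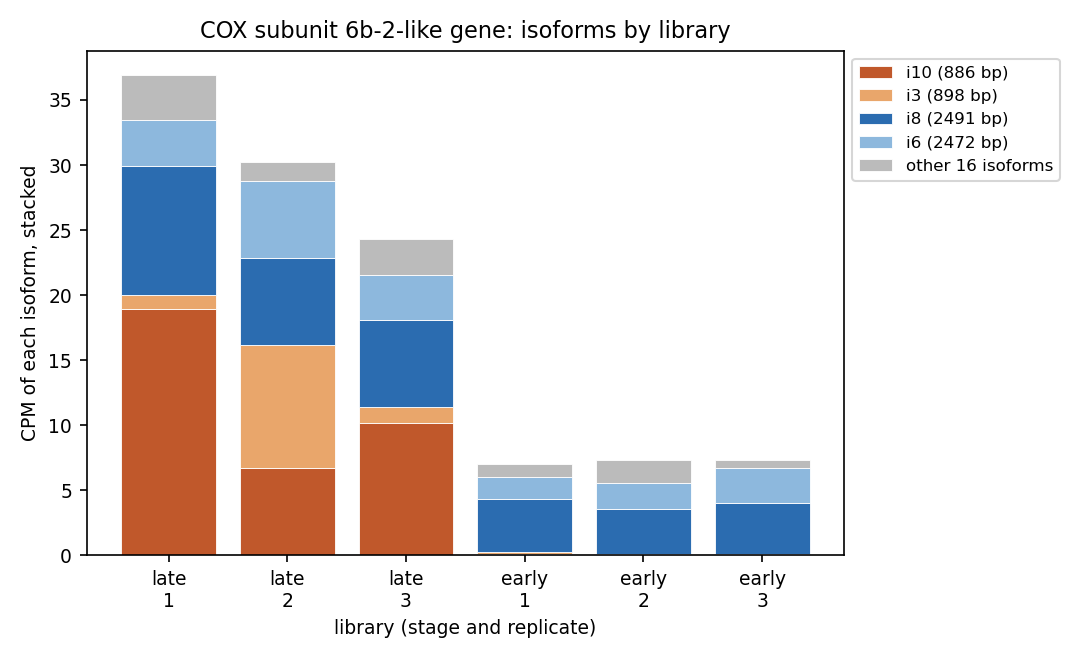
CPM of the COX6b isoforms stacked in each library, with the 3 late libraries left of the 3 early ones and the length of each named contig in the legend. The short contigs i10 and i3 (orange) add 15.8 ± 4.31 CPM in late and 0.147 ± 0.102 CPM in early instars (SD, n = 3), and the long contigs i8 and i6 (blue) add 12.1 ± 1.71 CPM in late and 5.95 ± 0.570 CPM in early instars.

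As shares of their gene, the long contigs i6 and i8 together held 40.02% ± 3.10 of the counts in late and 82.6% ± 7.60 in early instars (SD, n = 3). The difference between isoforms was tested with edgeR's diffSpliceDGE over 11676 genes with 2 or more tested isoforms, which asks whether an isoform changes differently from the rest of its gene. The Simes p of COX6b was 0.000666 after adjustment over all genes, and 3.60% of the genes tested passed 0.05. It rests on i10, the transcript that the study listed (adjusted p = 0.000484, edgeR diffSpliceDGE), while i3 did not pass by itself (adjusted p = 0.252). Of the TPM of the gene, i10 held 70.27%, 31.33% and 61.11% in late replicates 1, 2 and 3, against 3.29%, 0% and 1.70% in the early replicates.

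The other 16 contigs of COX6b, of 208 to 2869 bp, did not pass the filter. Each had at most 0.544 CPM on average in late and 0.265 CPM in early instars, and together they had 2.57 ± 1.02 CPM in late and 1.11 ± 0.580 CPM in early instars. Over all 20 contigs, 5 had counts in late instars only, 3 in early instars only, 10 in both, and 2 had no count in any library. Another 9 Trinity genes share the read cluster number DN15158, of which 2 were tested and neither was called. The abundant one, TRINITY_DN15158_c3_g1, had 89.7 ± 6.81 CPM in late and 83.0 ± 21.0 CPM in early instars (log2 fold change 0.11, SE 0.22, edgeR adjusted p = 0.751), and it is not named in the sources used here.

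CYP6B46 had 16.0, 13.2 and 12.3 CPM in late replicates 1, 2 and 3, against 17.6, 15.3 and 22.7 CPM in early replicates 1, 2 and 3. The stages overlapped, since late replicate 1 was above early replicate 2. Its log2 fold change was -0.42 (SE 0.21, edgeR adjusted p = 0.179). The 95% interval ran from -0.90 to 0.07, so the data allow anything from 1.87-fold lower to 1.05-fold higher in late instars. Over the alternatives that keep all isoforms in the sum, this adjusted p was between 0.144 and 0.607.

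Within this sum, the counts that RSEM assigned to isoforms moved in opposite directions. How RSEM divides fragments between the contigs of this gene was not tested, as no sequences were used here. Some contigs varied widely within a stage, such as i11 with 53.86, 5.49 and 0 counts in early replicates 1, 2 and 3. The listed transcript i4, of 3394 bp, had 5.46, 6.60 and 5.39 CPM in the late replicates and 0 counts in all early replicates. Late instars averaged 5.82 ± 0.676 CPM (SD, n = 3), at least 155-fold higher than early instars at the floor of 3 counts. It was the most abundant CYP6B46 contig in each late library, with 33.5%, 48.7% and 42.7% of the counts of the gene in late replicates 1, 2 and 3.

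Contig i18, of 4945 bp, showed the opposite direction. It is not among the transcripts singled out by the study, and whether the study also called it was not checked here. It had 0.517, 1.09 and 0.705 CPM in the late replicates, against 10.7, 6.82 and 9.92 CPM in the early ones. Early levels were 11.9 times the late levels, and every late library was below every early one, as in 17.2% of all tested transcripts. Its log2 fold change was -3.59 (SE 0.43, 95% interval -4.63 to -2.55, edgeR adjusted p = 0.00725). With any 1 library left out, the adjusted p was between 0.0114 and 0.0304. Of the late libraries only replicate 2 exceeded 1 CPM, so i18 passed the filter through early instars, where it is high. These values are therefore a description. The contig held 3.17%, 8.04% and 5.58% of the counts of the gene in the late replicates and 57.9%, 45.1% and 44.6% in the early ones.

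**Figure D4:**
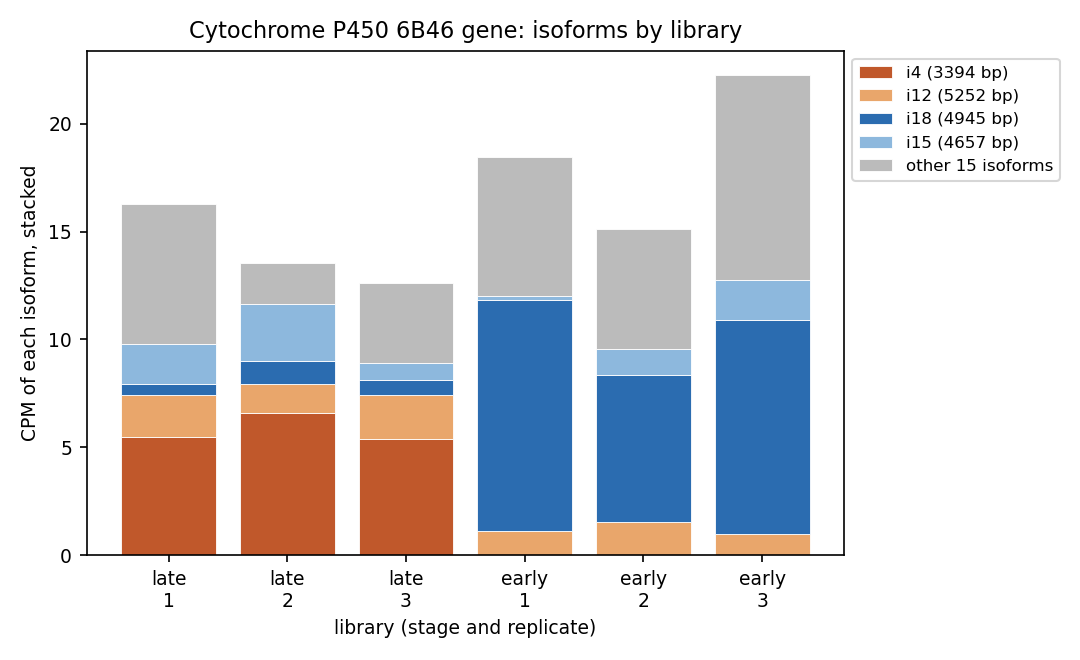
CPM of the CYP6B46 isoforms stacked in each library, with the 3 late libraries left of the 3 early ones and the length of each named contig in the legend. Contig i4 (dark orange) has 5.82 ± 0.676 CPM in late instars and none in early instars, i18 (dark blue) has 0.770 ± 0.291 CPM in late and 9.14 ± 2.05 CPM in early instars (SD, n = 3), and the height of the whole bar overlaps between the stages.

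In the test of isoform use, the adjusted Simes p of CYP6B46 was 7.05e-05 (edgeR diffSpliceDGE). It rests on the listed i4, which had an adjusted p of 3.76e-05 there. Contig i18 had an adjusted p of 0.0209 in this test, and 1.56% of 43775 isoforms passed 0.05. The adjusted p of i18 was 0.1 without late replicate 1, 0.159 without late replicate 3 and 0.121 without early replicate 1. The test sets i18 against a gene that holds i4, so these values are not independent of the study's choice of i4. Without i4 and i18, the other 17 contigs had 7.56 ± 2.401 CPM in late and 9.47 ± 2.49 CPM in early instars (SD, n = 3). With i4 alone left out of the sum, the gene had a log2 fold change of -1.18 (SE 0.25, edgeR adjusted p = 0.00868), which did not reach the limits of a call. Leaving out a contig that was picked for being high in late instars lowers the late side by construction.

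Of the remaining named contigs, i12 (5252 bp) had 1.96, 1.32 and 2.05 CPM in the late replicates, against 1.12, 1.54 and 0.968 CPM in the early ones. Contig i15 (4657 bp) had 1.83, 2.63 and 0.784 CPM in the late replicates, against 0.186, 1.22 and 1.87 CPM in the early ones. Both overlapped between the stages. Their log2 fold changes were 0.55 (SE 0.46, edgeR adjusted p = 0.555) for i12 and 0.70 (SE 0.89, edgeR adjusted p = 0.729) for i15.

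The other 15 contigs of CYP6B46 each had at most 1.14 CPM on average in late and 1.76 CPM in early instars. Of these, 2 were tested, with adjusted p of 0.323 for i5 and 0.981 for i2 (edgeR quasi-likelihood). Over all 19 contigs, 2 had counts in late instars only, 4 in early instars only and 13 in both. The early-only contig i17, a fragment of 480 bp, had 0 counts in all late replicates and 19.69, 4.54 and 12.2 counts in early replicates 1, 2 and 3, at least 11.99-fold lower in late instars at the floor of 3 counts. It was the only early-only contig of CYP6B46 with counts in every early library, held 2.49% ± 0.257 of the early counts of the gene, and was chosen after its values were seen. The single other Trinity gene of read cluster DN20396 was too weak to be tested.

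Over the 3 genes together, 12 of the 44 isoforms passed the filter on low counts. In 7 of these every late library was above every early library, as in 15.8% of all tested transcripts. In i18 of CYP6B46 every late library was below, as in 17.2%, and 4 contigs of CYP6B46 overlapped. The 7 include the listed transcripts, which the study picked on these libraries. Contigs i1 and i3 of FAS, i3 and i10 of COX6b and i4 of CYP6B46 exceeded 1 CPM in late libraries only. They passed the filter through that stage alone, so the 7 are a description. The same holds for i18 of CYP6B46, which passed through early instars. At the limits of the study the quasi-likelihood test called 0 of the 12, as it called 0 of all 52912 tested transcripts (0%). The smallest adjusted p of any transcript in that test was 0.00247, which is above the limit on adjusted p. The study itself did call transcripts with edgeR at these limits, the listed ones among them. Its methods describe edgeR as run through the expression tools that come with Trinity, at default parameters. They do not name the edgeR test that this applies. An unadjusted p under 0.05 in the quasi-likelihood test was found in 8 of the 12, the listed transcripts among them. It was found in 12871 of all 52912 tested transcripts. By edgeR's exact test 3276 and by DESeq2 4320 of the same 52912 transcripts were called. Among the 10 isoforms described one by one, the exact test called i1 and i3 of FAS, i10 of COX6b, and i4 and i18 of CYP6B46, with adjusted p between 7.45e-47 and 8.94e-05. DESeq2 called the same isoforms and also i3 of COX6b (DESeq2 adjusted p = 0.00031).

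The study groups the cytochrome P450, cytochrome c oxidase and aminopeptidase N transcripts as detoxification enzymes and adds mucin and serine protease as genes of digestion. The Trinity genes of the other 3, which it also listed from these libraries, had another pattern among the late replicates. Aminopeptidase N-like TRINITY_DN20910_c0_g1, a digestive peptidase of the midgut brush border, had 483, 116 and 389 CPM in late replicates 1, 2 and 3, against 14.4, 17.98 and 16.8 CPM in the early ones. The mucin-5AC-like gene TRINITY_DN20861_c0_g1 had 197, 16.4 and 159 CPM in the late replicates, against 15.6, 11.05 and 12.7 CPM in the early ones. The serine protease H51 gene TRINITY_DN19503_c2_g2 had 77.4, 7.13 and 51.1 CPM in the late replicates, against 0.597, 0.468 and 0.490 CPM in the early ones. All 3 were lowest in late replicate 2, whereas in that library the gene sum of FAS was at its highest late value and those of COX6b and CYP6B46 were between the other late replicates. Among the listed transcripts, i10 of COX6b was also lowest in that library (6.74 CPM). The listed i1 of FAS and i4 of CYP6B46 were highest there (110 and 6.60 CPM). Without late replicate 2 the log2 fold changes of the members were 11.73 for FAS, 2.08 for COX6b and -0.38 for CYP6B46, close to those with all libraries.

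As a description of likeness, the tested genes with a mean CPM within 2-fold of each member were ranked by Pearson's r of log2(CPM + 1) over the 6 libraries, whose stage all genes share. For FAS the closest of 4441 genes was TRINITY_DN21441_c6_g2 (r = 0.9999), with 117 ± 13.6 CPM in late and 0.0847 ± 0.0894 CPM in early instars. For COX6b the closest of 5978 genes was TRINITY_DN20049_c0_g2 (r = 0.998), with 30.4 ± 3.26 CPM in late and 10.6 ± 0.434 CPM in early instars. For CYP6B46 the closest of 6099 genes was TRINITY_DN18823_c0_g1 (r = 0.981), with 9.43 ± 0.686 CPM in late and 10.6 ± 1.09 CPM in early instars. An r above 0.9 was reached by 396 genes for FAS, 707 for COX6b and 9 for CYP6B46, so the first 2 patterns were common. The files pair none of these IDs with a name.

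**Figure D5:**
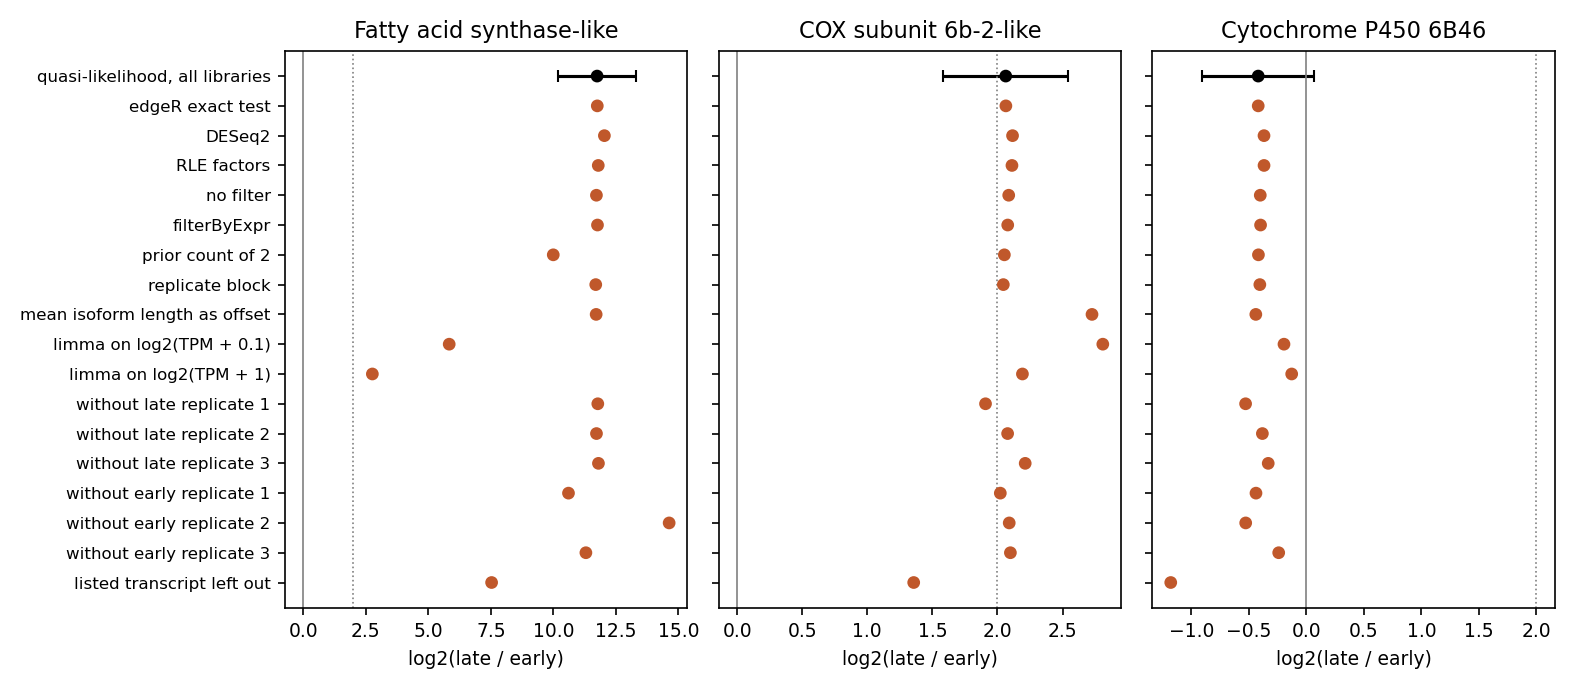
Log2 fold change of the summed counts, late over early, for FAS, COX6b and CYP6B46 (horizontal axes, each with its own scale) under each setting run on the gene sums (vertical axis). The setting with the listed transcript left out was chosen after seeing the data. The black point is the quasi-likelihood fit with all libraries and its bar the 95% interval, the orange points are single alternatives, the solid line marks 0 and the dotted line the limit of 2. COX6b sits near the limit, with 1.91 without late replicate 1 and 1.36 with its listed transcript left out. CYP6B46 is below 0 throughout, and the values of FAS depend on the prior count or pseudocount because its early libraries are at or near 0.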

How the data were processed

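RNA of whole larvae was sequenced as paired-end reads. The authors trimmed the reads with Trimmomatic 0.36, checked them with FastQC 0.11.7, assembled all libraries together with Trinity and estimated abundance with RSEM. Neither the aligner nor the RSEM version is given in the sources used here. For each transcript and library the authors deposited expected counts without normalization, TPM and FPKM scaled by RSEM within a library, and the percent of the gene's TPM held by each isoform. FPKM entered no result. There is no genome build, and no sequences were used here.

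Expected counts, or their sums per Trinity gene, were rounded and tested with edgeR 4.0.16 in R 4.3.3 (TMM factors, glmQLFit, glmQLFTest, prior count 0.125) over all transcripts or genes with more than 1 CPM in at least 2 libraries, with stage as the only term and Benjamini-Hochberg adjustment. A call required an adjusted p no higher than 0.001 with a log2 fold change of 2 or more in size. Isoform use was tested with diffSpliceDGE on the transcript fit. Each standard error is the fold change divided by the root of its F statistic. CPM for genes and for transcripts use the TMM factors of their own fit. At 1 CPM a gene rests on between 10.7 and 48.6 counts. The alternatives were edgeR's exact test, DESeq2 1.42.0, RLE factors, no filter or filterByExpr, a prior count of 2, a length offset, limma 3.58.1 on log2(TPM + 0.1) or log2(TPM + 1), an adjusted p of 0.05, a block for the replicate number, and each library left out. The steps were tested on simulated counts.

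Named one by one are the listed transcripts, isoforms with at least 10% of the mean CPM of their gene in either stage, isoforms with an adjusted p of at most 0.05, the 3 genes of digestion and detoxification, and the closest gene to each member. The members and lists were chosen with earlier results of these data known. The title of early replicate 3 has a digit typed for a letter, so the stage of that library rests on its stage label. All 6 libraries were kept as separate samples, since the counts of the closest pair of a stage differed with a chi-square per degree of freedom of 36.8.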

Additional observations from a re-analysis of the deposited data

How the results depend on the processing

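The direction of the 3 gene sums was the same under every alternative run on them. The call of FAS was kept in each, and CYP6B46 was called in none. COX6b lost its call with i10 left out of the sum (log2 fold change 1.36, chosen after seeing the data) and in 4 of the 6 fits without 1 library. Over all 6 of these fits its log2 fold change ranged from 1.91 to 2.21, and over those that lost the call from 1.91 to 2.10. The isoform use of COX6b and CYP6B46 passed 0.05 in all 8 alternatives run on it, with adjusted p up to 0.0219 and 0.0101, and that of FAS (adjusted p = 0.377) passed in none. All p-values are from edgeR unless another tool is named.

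The number of genes called was 1953, against 3097 by the exact test, 2936 by DESeq2, 3828 with no filter, 748 with limma on log2(TPM + 1) and 3127 at an adjusted p of 0.05. Without 1 library it ranged from 1026 to 2487. The number of transcripts called was 0, against 3276 by the exact test, 4320 by DESeq2, 1892 with no filter and 3818 at an adjusted p of 0.05, and it was 0 in every fit without 1 library. The causes were not tested.

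Whether the replicate numbers pair the libraries cannot be told from 3 libraries per stage. The deviations of same-numbered libraries from their stage means correlated at 0.111, 0.0201 and 0.221 for numbers 1, 2 and 3. Differently numbered libraries correlated at -0.237 to 0.0469. Libraries numbered 1 and 3 correlated most with their own number. Late replicate 2 correlated more with early replicate 1 (0.0469) than with its own number. With the replicate block, 1691 genes were called, the gene sums kept their calls (log2 fold change 11.70 for FAS, 2.05 for COX6b and -0.40 for CYP6B46), and the adjusted p was 0.0669 for i1 and 0.126 for i3 of FAS, and 0.121 for i4 and 0.0826 for i18 of CYP6B46, with 0.133 for the isoform use of i18. That fit leaves fewer degrees of freedom.

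Shares differed by unit. In percent of counts in place of TPM, the late minus early difference was 37.7 against 52.6 percentage points for i10 of COX6b, 5.80 against 3.17 for i12 and -43.6 against -24.9 for i18 of CYP6B46. Contigs with few counts, such as the early side of FAS and of i10, limit the precision of any fold.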
